A study of Saccharomyces cerevisiae with 4 samples.

Results

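Budding yeast genes whose names begin with UTP, NOP or RRP followed by a number encode proteins that build ribosomes, and 52 of them were measured here: 18 UTP, 16 NOP and 18 RRP genes. They were chosen by symbol, with earlier results of these data known, from probe sets that the array annotation ties to 1 gene. They make up 52 of 5656 genes on such probe sets. All 52 exceeded the minimum mean signal for testing, as 4576 genes did in all. RNA came from 2 cultures of a mutant strain carrying histone H3 K4,36,79R, in which lysines 4, 36 and 79 are replaced by arginine, and from 2 cultures of its wild-type strain. Both strains were in mid-log growth on galactose, in selective medium, and were taken at 0 h, before the change to glucose that turns off wild-type H3. The mutant cultures therefore had not yet been left with mutant H3 alone, which limits them as a model of cells without wild-type H3. No other allele or strain background is given in the sources used here, and that the arrays of a group come from separate cultures is taken from the design text.

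Ribosome assembly starts in the nucleolus, where RNA polymerase I makes a long precursor of the ribosomal RNAs. UTP proteins (named for the U3 RNA) join the precursor with the U3 small nucleolar RNA in the small-subunit processome, which frees and folds the RNA of the 40S subunit. NOP genes are named for nucleolar proteins and include small nucleolar RNP (ribonucleoprotein) core proteins and factors of the 60S subunit. RRP genes are named for ribosomal RNA processing and include several subunits of the RNA exosome, which trims RNA from the 3′ end. In yeast, transcripts of this regulon are known to follow growth rate and nutrient supply together.

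The median of each of the 3 families was slightly lower in the mutant cultures, and no member passed the test. The difference was below 0 for 12 of 18 UTP, 12 of 16 NOP and 12 of 18 RRP genes, or 69.2% of the 52, against 51.6% of all tested genes. The median differences were -0.14 for UTP, -0.12 for NOP and -0.09 for RRP genes on the log2(signal + 2) scale, against -0.01 over all tested genes. In limma, 0 of the 52 had an adjusted p under 0.05, against 0.0437% of all tested genes, and the members' adjusted p-values ran from 0.559 to 0.997. At an unadjusted p under 0.05, 2 members were lower and 0 higher, against 3.61% lower and 4.92% higher among all tested genes. With each array left out in turn, 11 to 17 UTP, 9 to 13 NOP and 11 to 14 RRP genes were below 0. The medians came closest to 0 in UTP without wild-type replicate 1 (-0.06), and in NOP (-0.06) and RRP (-0.06) without mutant replicate 2, while NOP was lowest without wild-type replicate 1 (-0.22). Since the members were chosen with results known, the counts and medians are descriptions without a test.

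Both mutant arrays lay below both wild-type arrays for 19 of the 52 genes (36.5%), against 18.5% of all tested genes. Both lay above for 1 gene, RRP5 (1.92%), against 21.0% of all tested genes. By family, 7 UTP, 6 NOP and 6 RRP genes lay below without overlap. For 13 of the 52 genes both mutant arrays fell between the wild-type arrays, a share near the 25.4% of all tested genes.

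**Figure D1:**
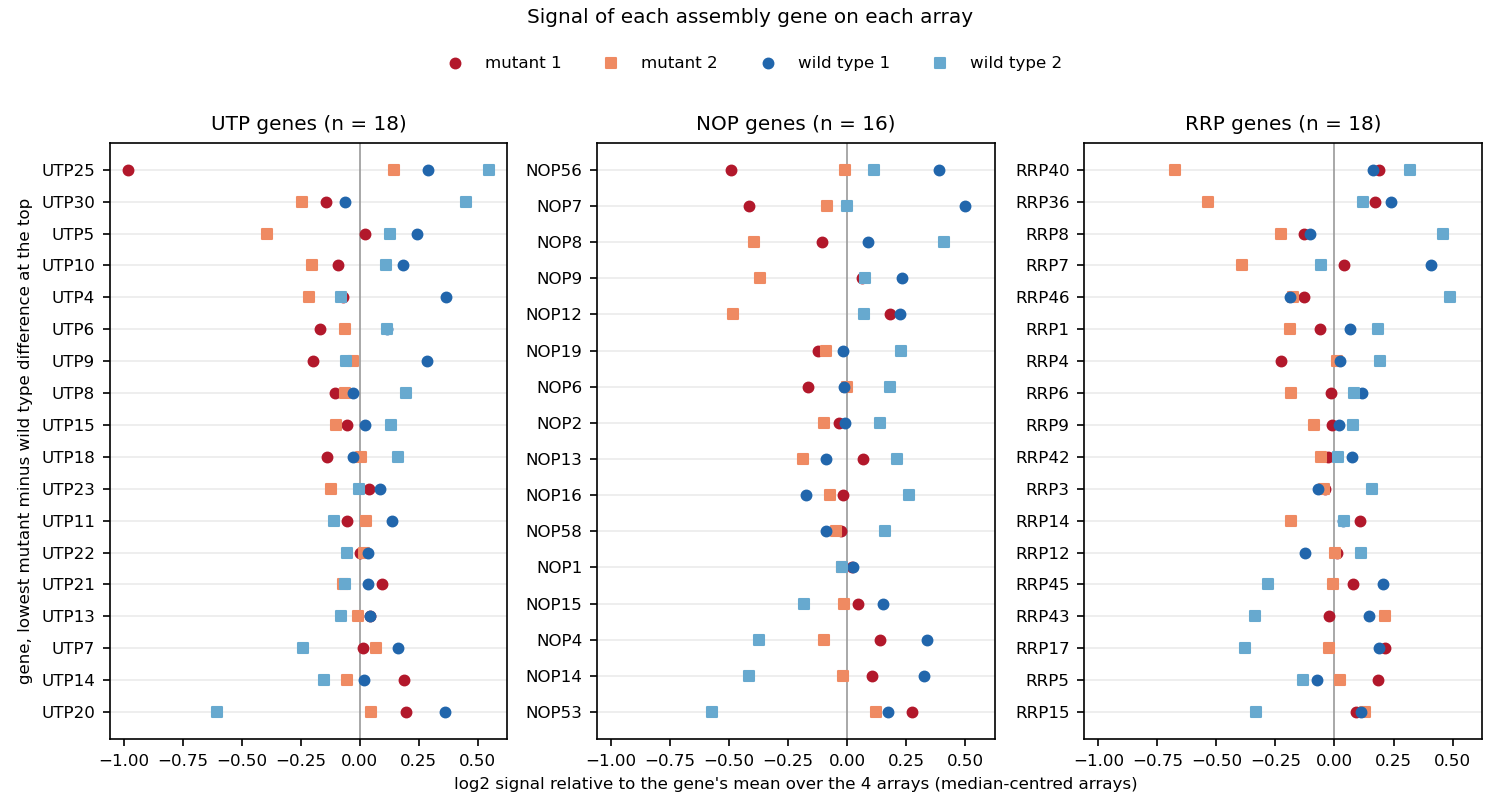
Each row is a gene and each point an array; the x axis is the log2 signal relative to the gene's mean over 4 arrays, after centring each array. Red and orange mutant points lie left of both blue wild-type points in 19 rows, and right of both in the RRP5 row.

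Facts of the arrays bear on these small differences. A gene's signals are given as rescaled signals, which are the deposited signals of every array put on a common array median. Deposited mutant values moved in steps 0.839 and 0.960 times those of the wild-type arrays. A factor on the mutant arrays was inferred from these steps, and its origin is unknown. Growth on galactose showed in GAL1, the galactokinase gene, at 1150 and 1250 in the mutant against 1367 and 1407 in the wild type. GAL1, GAL7 and GAL10 differed by -0.21, -0.33 and -0.37, with limma adjusted p of 0.829, 0.748 and 0.668. In each of them both mutant arrays lay below both wild-type arrays, against 18.5% of all tested genes. URA3, a uracil synthesis gene often used as a strain marker, read 645 and 637 in the mutant against 13.1 and 14.4 in the wild type, so the strains differed widely in this gene. Control probe sets for 25S ribosomal RNA summed to 363 and 279 in the mutant against 1034 and 838 in the wild type, as deposited. Those for 18S ribosomal RNA summed to 222 and 134 in the mutant against 246 and 505 in the wild type. For actin, control signal at the 3′ end was 1.81 and 1.53 times that at the 5′ end in the mutant, against 1.53 and 1.40 times in the wild type. The part of these controls in the results was not tested. In bulk cultures, fewer cells holding a transcript and less of it per cell cannot be told apart.

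Replicates of a group also differed from each other. Relative to each gene's mean over 4 arrays, the median UTP gene lay at -0.06 and -0.06 in the mutant against 0.10 and -0.03 in the wild type. For NOP genes the medians were 0.00 and -0.08 in the mutant against 0.12 and 0.09 in the wild type. For RRP genes they were 0.00 and -0.07 in the mutant against 0.07 and 0.08 in the wild type. Both mutant arrays thus had lower medians than both wild-type arrays in each family, by a narrow margin in UTP. The median size of the gap between replicates of a gene was 0.14 in the mutant and 0.23 in the wild type over the 52 genes, and 0.14 and 0.28 over all tested genes. A gene's difference between strains was wider than its gap between wild-type replicates for 5 UTP, 5 NOP and 9 RRP genes, or 19 of the 52, a share near that of all tested genes (1623 of 4576).

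**Figure D2:**
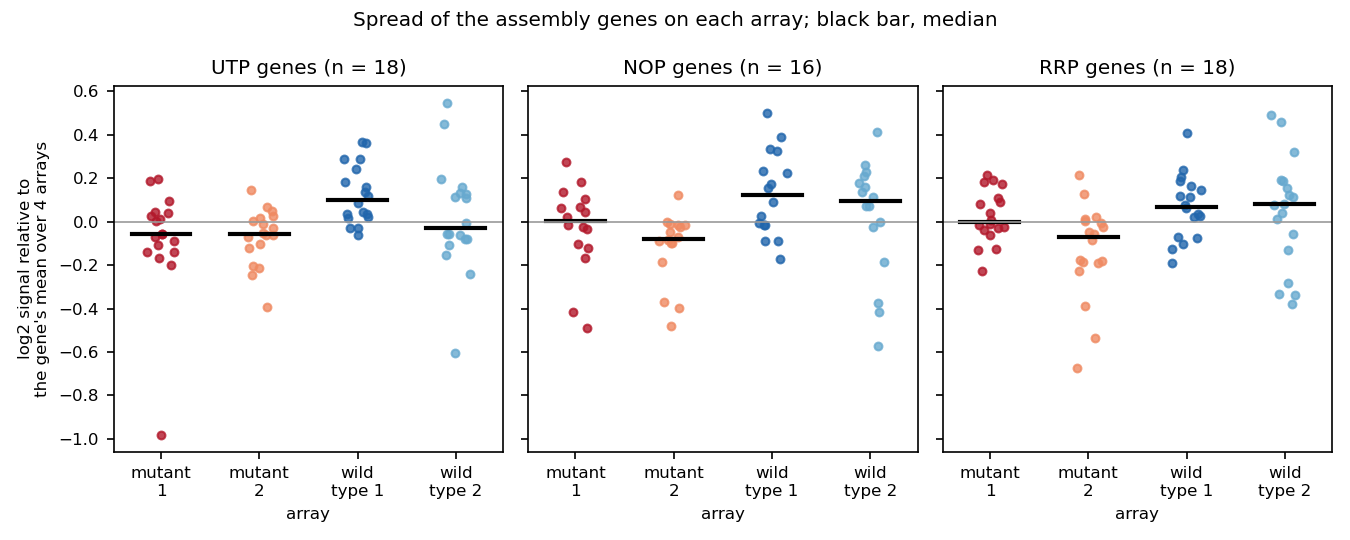
Points are genes, columns are arrays, the y axis is the log2 signal relative to the gene's mean over 4 arrays, and the black bar is the family median. The UTP medians are -0.06 and -0.06 on the mutant arrays against 0.10 and -0.03 on the wild-type arrays, and single genes spread far wider than the medians.

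Among the UTP genes, the members of the UTP-A subcomplex all stood on the lower side. UTP-A binds the start of the nascent precursor RNA and is also called t-UTP for its link to ribosomal DNA transcription. All 6 of its measured UTP-named subunits had differences below 0, against 51.6% of all tested genes, with a median of -0.26. In 4 of the 6 both mutant arrays lay below both wild-type arrays, against 18.5% of all tested genes. UTP5 (YDR398W), a WD-repeat subunit, read 158 and 118 in the mutant against 184 and 170 in the wild type. Its difference was -0.37 (SE 0.19, limma adjusted p = 0.639), with a 95% confidence interval from -0.80 to 0.07. UTP10 (YJL109C), a large helical-repeat protein of UTP-A, read 232 and 215 in the mutant against 281 and 267 in the wild type. The 2 groups of UTP10 stood apart, by -0.29 (SE 0.15, adjusted p = 0.648), and each group's replicates were closer to each other than to the other group. UTP4 (-0.29), UTP9 (-0.23), UTP8 (-0.17) and UTP15 (-0.16) had smaller differences, and UTP8 and UTP15 were without overlap. Single arrays moved several of these values: without wild-type replicate 1 UTP4 was at -0.06 and UTP9 at -0.05, without wild-type replicate 2 UTP8 was at -0.06 and UTP15 at -0.10, and without mutant replicate 2 UTP5 was at -0.16. NAN1, the UTP-A subunit once called Utp17, did not share the direction, with a difference of 0.10.

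UTP-B, which holds the U3 RNP and the precursor RNA together, was split. UTP6 (YDR449C) read 74.7 and 80.6 in the mutant against 91.5 and 91.4 in the wild type, a difference of -0.23 without overlap. UTP18 differed by -0.13, while UTP21 and UTP13 differed by 0.02 and 0.04. UTP13 (YLR222C), a WD-repeat subunit, read 194 and 187 in the mutant against 194 and 178 in the wild type, so its groups overlapped. The other UTP-B genes, DIP2 and PWP2, once called Utp12 and Utp1, differed by -0.57 and 0.08. DIP2 rested on wild-type replicate 1, with 72.2 and 90.1 in the mutant against 165 and 87.9 in the wild type.

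The lowest difference of the 52 genes belonged to UTP25 (YIL091C), a helicase-like protein of the small-subunit processome, and it rested on 1 array. UTP25 read 46.3 and 104 in the mutant against 115 and 138 in the wild type. Its difference was -0.84 (SE 0.34, adjusted p = 0.559, unadjusted 95% confidence interval from -1.63 to -0.05). Mutant replicate 1 stood far below the other arrays, while mutant replicate 2 was near wild-type replicate 1. Without mutant replicate 1 the difference was -0.27 (adjusted p = 1.00), and without mutant replicate 2 it was -1.40 (adjusted p = 0.00628). The last is the only call of a member under any setting run, from a fit with 1 residual degree of freedom in which the lone mutant array is taken to vary like the wild type. UTP30 (YKR060W), a nonessential protein of the processome, read 44.8 and 41.5 in the mutant against 47.5 and 68.4 in the wild type. Its difference of -0.39 (SE 0.23, adjusted p = 0.698) was set mainly by wild-type replicate 2, since the other wild-type array was close to the mutant ones; it was -0.13 without wild-type replicate 2.

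The 3 highest UTP differences belonged to UTP20, UTP14 and UTP7, and wild-type replicate 2 was the lowest array of each. UTP20 (YBL004W), a large helical-repeat protein of late processome assembly, read 76.3 and 68.7 in the mutant against 85.9 and 43.1 in the wild type. Both mutant values lay between the wild-type values, and the difference of 0.24 (SE 0.31, adjusted p = 0.869) turned to -0.24 when wild-type replicate 2 was left out and was 0.72 without the other wild-type array. UTP14 (YML093W), which activates the helicase Dhr1, read 119 and 100 in the mutant against 105 and 93.5 in the wild type, a difference of 0.14 (SE 0.18, adjusted p = 0.877). UTP7 (YER082C), a WD-repeat protein of the processome, read 72.3 and 75.2 in the mutant against 80.4 and 60.3 in the wild type. UTP7 thus lay between the wild-type arrays, at a difference of 0.08 (SE 0.21, adjusted p = 0.955).

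The remaining UTP genes showed little separation. UTP23 (YOR004W), related to the processome nuclease Fcf1, read 187 and 167 in the mutant against 193 and 181 in the wild type, a difference of -0.08. UTP22, which forms UTP-C with Rrp7, differed by 0.02, with a confidence interval from -0.34 to 0.37. UTP11 differed by -0.03, and with a mean deposited signal of 25.5 it was the member closest to the testing minimum of 24.9.

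Of the NOP genes, box C/D small nucleolar RNP proteins ranged from the lowest NOP difference to nearly 0. These proteins belong to the particles that carry out 2′-O-methylation of ribosomal RNA, and they form the core of the U3 particle. NOP56 (YLR197W), a scaffold protein, read 159 and 222 in the mutant against 294 and 243 in the wild type. Its groups did not overlap, and it differed by -0.50 (SE 0.20, adjusted p = 0.559), or 0.706-fold, with an unadjusted 95% confidence interval from -0.98 to -0.03. Its difference was -0.26 without mutant replicate 1. NOP58 (YOR310C), the paralogous scaffold partner of Nop56, read 1337 and 1318 in the mutant against 1277 and 1521 in the wild type. Both mutant arrays of NOP58 lay within the wild-type range, at -0.07 (SE 0.23, adjusted p = 0.965). NOP1 (YDL014W), the methyltransferase fibrillarin, read 646 and 627 in the mutant against 649 and 628 in the wild type, so the groups overlapped at a difference of 0.00 (SE 0.17). RRP9, the U3-specific WD-repeat protein, differed by -0.10 and SNU13, which binds the RNA of these particles, by -0.01. Subunits of 1 particle thus gave differences from -0.50 to 0.00, each from a separate probe set, and the difference between NOP56 and NOP58 itself was not tested.

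NOP genes of the 60S subunit lay on both sides. NOP7 (YGR103W), the yeast counterpart of pescadillo, works with Erb1 and Ytm1 and read 21.3 and 27.3 in the mutant against 42.0 and 29.1 in the wild type. The groups did not overlap, at a difference of -0.50 (SE 0.26, adjusted p = 0.653), which was -0.25 without wild-type replicate 1. The mean deposited signal of NOP7, 30.3, was near the testing minimum of 24.9, and with a pseudocount of 9 its difference was -0.40. NOP8 (YOL144W), a 60S assembly factor, read 56.2 and 45.6 in the mutant against 64.6 and 81.3 in the wild type. NOP8 did not overlap either, at -0.50 (SE 0.22, adjusted p = 0.587), and stayed between -0.66 and -0.34 with each array left out in turn. NOP53 (YPL146C), which brings the exosome helicase Mtr4 to late 60S particles, had the highest difference of the 52 genes, at 0.40 (SE 0.28, adjusted p = 0.730). It read 56.2 and 50.3 in the mutant against 52.3 and 30.3 in the wild type, so that wild-type replicate 2 alone was low, and the difference was 0.02 without it. NOP4 (YPL043W), an RNA-binding 60S factor, read 136 and 115 in the mutant against 156 and 94.5 in the wild type, at a difference of 0.04. NOP15 (YNL110C), which binds the spacer RNA of the 60S precursor, read 295 and 283 in the mutant against 318 and 251 in the wild type, at 0.03. For NOP4 and NOP15 both mutant arrays lay between the wild-type arrays. NOP12 (-0.30), NOP2 (-0.13), NOP13 (-0.12) and NOP16 (-0.09) completed the 60S members of the family, and of these NOP2, a ribosomal RNA methyltransferase gene, was without overlap.

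Of the 4 NOP genes of the 40S subunit, 3 had differences below 0 and NOP14 one above, and none passed the test. NOP9 (YJL010C), a Pumilio-like RNA-binding protein, read 83.4 and 61.3 in the mutant against 94.1 and 84.1 in the wild type. Its groups were narrowly apart at -0.31 (SE 0.21, adjusted p = 0.730), and its difference was -0.09 without mutant replicate 2. NOP19 and NOP6 differed by -0.21 and -0.17. NOP14 (YDL148C), once named Utp2, read 62.8 and 57.7 in the mutant against 73.7 and 43.3 in the wild type, at 0.09 (SE 0.27, adjusted p = 0.964). Its mutant arrays lay between the wild-type ones, and the sign turned to -0.28 without wild-type replicate 2.

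**Figure D3:**
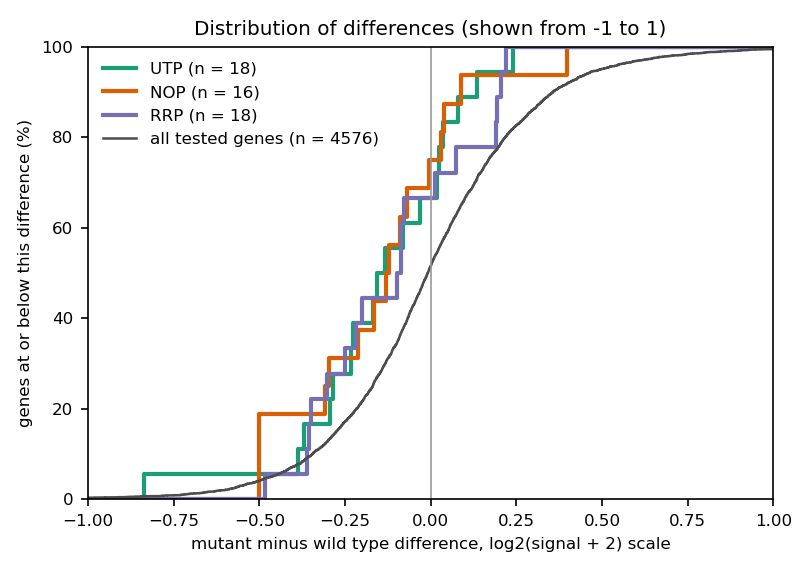
The curves give the percentage of genes at or below each mutant minus wild type difference, on the log2(signal + 2) scale from -1 to 1, for UTP, NOP and RRP genes and all tested genes. The family curves lie left of the curve of all tested genes over most of their range, with medians of -0.14, -0.12 and -0.09 against -0.01.

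Among RRP genes, 6 encode core subunits of the exosome, a ring of RNase PH-like proteins with a cap of RNA-binding proteins. Of these, 4 had differences below 0 and 2 above, with a median of -0.15. RRP40 (YOL142W), a cap subunit, read 191 and 104 in the mutant against 187 and 209 in the wild type. Mutant replicate 2 alone was low, and the difference of -0.48 (SE 0.27, adjusted p = 0.674) was -0.05 without it. RRP4, another cap subunit, differed by -0.22 and did not overlap, with 67.5 and 80.0 in the mutant against 80.8 and 91.0 in the wild type. RRP46 (YGR095C), a ring subunit, read 192 and 186 in the mutant against 184 and 296 in the wild type. Its difference of -0.30 (SE 0.23, adjusted p = 0.750) came from wild-type replicate 2, and was 0.04 without it. RRP43 (YCR035C), a ring subunit on the higher side, read 56.1 and 66.6 in the mutant against 63.4 and 44.7 in the wild type, at 0.19 (SE 0.23, adjusted p = 0.865). The groups of RRP43 overlapped. The ring gene RRP42 differed by -0.09 without overlap, and the ring gene RRP45 by 0.07 with overlap. RRP6, the nuclear exonuclease attached to the ring, differed by -0.20 without overlap. The core genes outside the family, SKI6, MTR3, DIS3 and CSL4, differed by -0.33, -0.13, -0.08 and 0.02, the first 3 without overlap. Both mutant arrays lay below both wild-type arrays for 18.5% of all tested genes.

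The RRP genes of the small subunit had both low and high members. RRP36 (YOR287C), an early processome protein, read 42.8 and 25.4 in the mutant against 44.9 and 41.3 in the wild type. Mutant replicate 2 was the low array, and the difference of -0.36 (SE 0.27, adjusted p = 0.753) was -0.01 without it. RRP7 (YCL031C), the UTP-C partner of Utp22, read 107 and 79.2 in the mutant against 139 and 100 in the wild type. Its groups overlapped at a difference of -0.35 (SE 0.23, adjusted p = 0.721), which was -0.14 without mutant replicate 2 and -0.12 without wild-type replicate 1. RRP3, a DEAD-box helicase gene, differed by -0.09. RRP12 (YPL012W), a helical-repeat protein of subunit export, read 260 and 259 in the mutant against 237 and 280 in the wild type, both mutant arrays lying inside the wild-type range.

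RRP5 (YMR229C) was the single gene of the 52 with both mutant arrays above both wild-type arrays. It encodes a large RNA-binding protein needed for the RNAs of both subunits, and read 368 and 329 in the mutant against 308 and 295 in the wild type. The difference was 0.21 (SE 0.16, adjusted p = 0.753), and it ranged from 0.12 to 0.29 with each array left out in turn.

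RRP genes of the 60S subunit were mixed as well. RRP8 (YDR083W), a methyltransferase gene for 25S ribosomal RNA, read 111 and 103 in the mutant against 113 and 167 in the wild type. The groups did not overlap, although wild-type replicate 1 was close to the mutant arrays, and the difference of -0.36 (SE 0.21, adjusted p = 0.698) was -0.07 without wild-type replicate 2. RRP1 differed by -0.25, without overlap, at 84.3 and 77.0 in the mutant against 92.2 and 100 in the wild type. RRP14 differed by -0.08. RRP15 (YPR143W), an early 60S factor, read 75.1 and 77.1 in the mutant against 76.3 and 55.4 in the wild type, at 0.22 (SE 0.21, adjusted p = 0.814). RRP17 (YDR412W), a 5′ to 3′ exonuclease, read 53.1 and 44.7 in the mutant against 52.1 and 34.5 in the wild type, at 0.19 (SE 0.25, adjusted p = 0.872). In both RRP15 and RRP17 wild-type replicate 2 was the low array, and without it the differences were -0.0045 and -0.09.

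A common feature of the members on the higher side was the order of the wild-type arrays. Of the 16 genes with a difference above 0, 15 read higher in wild-type replicate 1 than in replicate 2, against 16 of the 36 with a difference below 0. Among all tested genes, of either sign, it was 2114 of 4576. For 8 of the 16, both mutant arrays fell between the wild-type arrays, against 25.4% of all tested genes of either sign. The difference is computed from these same arrays, so the counts describe the members and are no independent check. The counts were not taken for all tested genes with a difference above 0, so the pattern cannot be called particular to the members. With each array left out in turn, 27 genes kept a difference below 0 (11 UTP, 7 NOP and 9 RRP) and 3 kept one above 0, UTP14, NOP53 and RRP5, while 22 took either sign. These signs were not counted over all tested genes.

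A check within genes was possible for the 3 members with several probe sets, UTP20, UTP22 and NOP58. NOP58 had 4 probe sets above the testing minimum, with differences from -0.12 to -0.06. From the brightest to the dimmest, wild-type replicate 1 minus replicate 2 was -0.25, -0.17, 0.14 and 1.76. The gap between wild-type replicates in NOP58 thus changed sign and was wide on the dimmest. The brightest NOP58 probe set, used above, carries a suffix that marks sequence shared with other transcripts. Of the UTP20 and UTP22 probe sets above the testing minimum, all but the brightest of each gene carry that suffix too. Several dimmer ones do as well. UTP20 had 10, of which 4 were above the minimum, and these 4 gave differences of 0.24, 0.23, 0.12 and 0.35. On each of these 4 UTP20 probe sets, wild-type replicate 1 read higher than replicate 2, by 0.96, 0.65, 0.57 and 0.56. The gap between wild-type replicates in UTP20 thus recurred on all its brighter probe sets, which were read on the same arrays and RNA. UTP22 had 6 probe sets, 2 of them above the minimum, with differences of 0.02 and 0.26.

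**Figure D4:**
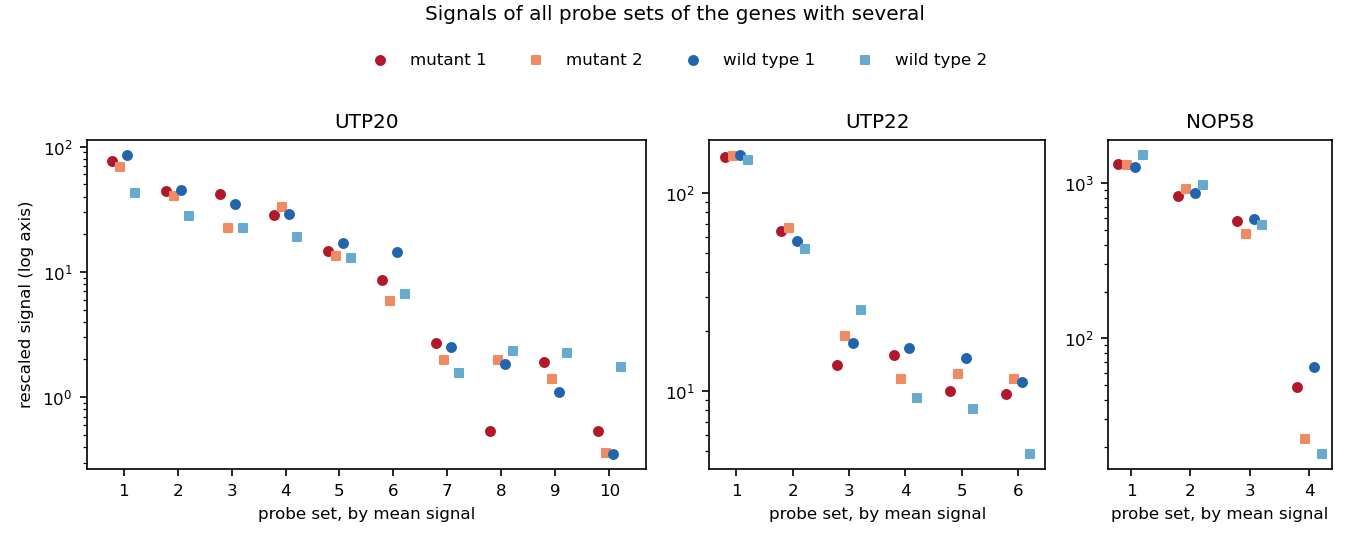
Rescaled signals (log axis) of all probe sets of UTP20, UTP22 and NOP58, ordered by mean signal, with 1 point per array. The 4 brightest UTP20 probe sets have wild-type replicate 1 above wild-type replicate 2, and the dimmest read near background.

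Assembly genes with other names were also mostly on the lower side. Of 110 listed genes outside the 3 families, all tested, 82 had a difference below 0, against 51.6% of all tested genes, with a median of -0.13, and 0 passed the limma test in either direction. Both mutant arrays lay below both wild-type arrays for 40 of the 110 and above for 3, against 18.5% and 21.0% of all tested genes. The Mpp10 subcomplex of the processome had 3 of 3 genes below without overlap, IMP4 at -0.38, IMP3 at -0.26 and MPP10 at -0.17. In the 60S list outside the families, 43 of 57 were below 0 (median -0.13), from SQT1 at -0.78 to SSF2 at 0.41. In the list of other processome and 40S factors, 26 of 32 were below 0 (median -0.14), from ENP1 at -0.72 to TSR1 at 0.90. SQT1, a chaperone of a ribosomal protein, read 99.1 and 247 in the mutant against 233 and 315 in the wild type, so mutant replicate 1 was its low array, as in UTP25. TSR1, a late 40S factor, read 201 and 185 in the mutant against 58.4 and 177 in the wild type, and its difference rested on wild-type replicate 1. Box H/ACA proteins, which belong to the particles that carry out pseudouridylation, showed small differences, GAR1 at -0.07, NHP2 at 0.05 and CBF5 at 0.06. Of 11 tested regulators of ribosome biogenesis genes, 5 were below 0 and 6 above, with a median of 0.00, from the kinase gene SCH9 at -0.33 to the ribosomal protein gene coactivator IFH1 at 0.27.

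**Figure D5:**
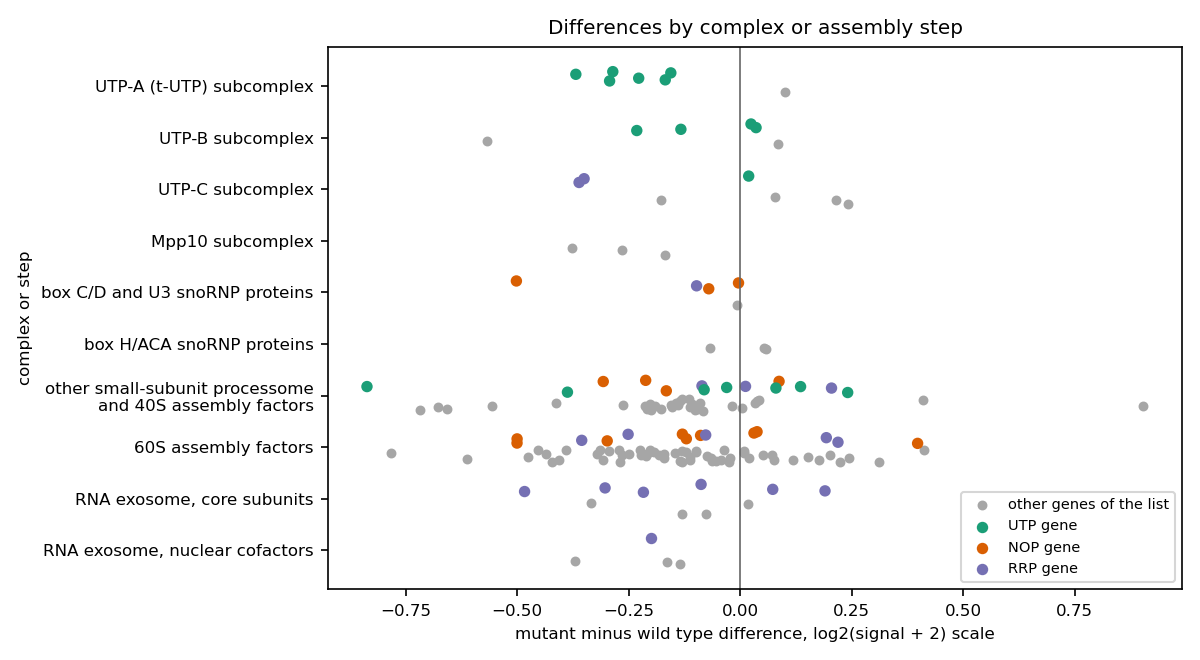
Rows are complexes or assembly steps and the x axis is the mutant minus wild type difference on the log2(signal + 2) scale; coloured points are UTP, NOP and RRP genes, grey points the other genes of a list. All 6 UTP genes of UTP-A lie left of 0, while UTP-B and the exosome core fall on both sides.

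Position along the chromosomes was compared by gene order. In 5 pairs, a member sat directly beside another gene of the assembly lists, and in none of them beside another member. The divergent pair RRP3 and SSF1 differed by -0.09 and -0.27, and the tandem pair UTP9 and RIX1 by -0.23 and -0.27. In the tandem pair of PWP1 and NOP56 the differences were -0.13 and -0.50. In the other two, RSA3 beside UTP13 and RRP15 beside NOC4, the neighbours had opposite signs, at -0.12 and 0.04 and at 0.22 and -0.14.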

How the data were processed

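The deposited values are intensities, 1 MAS5 signal per probe set and array on a linear scale, per the submitters' processing notes; its version and scaling target are not stated in the labels. Mutant values were whole multiples of a step smaller than the 0.1 of the wild-type arrays. The table held 9335 probe sets, of which 6504 were annotated with 1 gene. All 5656 genes matched RefSeq assembly R64 by gene ID, which served for names, locus tags and gene order. NOP10 has no probe set in this annotation and was not analysed here. No sequence is shown.

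A pseudocount of 2 (the 10th percentile of signals) was added before log2. The lowest 25% of probe sets by mean signal were left out, the brightest of a gene was used, and each array was centred on its median over 4576 genes. Rescaled signals are these values returned to a linear scale without the pseudocount. The strains were tested with limma 3.58.1 under R 4.3.3 (eBayes with a trend on intensity, 5.63 prior and 2 residual degrees of freedom), two-sided, with Benjamini-Hochberg adjustment over all tested genes at 0.05. Differences are mutant minus wild type, n = 2 per group, and that number limits all precision. The fit was also run on simulated data in which every gene had the same spread. Real genes differ in spread, so that run does not show how the fit performs here. Python 3.11.15, pandas 2.3.3, numpy 2.4.6 and matplotlib 3.10.9 did the rest.

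Members and lists were chosen with earlier results of these data known; RRP8 was moved to the 60S list and 3 duplicate names dropped later. In each family, values per array are given for the 4 lowest and 4 highest differences, the 3 brightest members and the 2 widest gaps between wild-type replicates; some others were added after their values were seen. A planned search of promoters for motifs was not run. Alternatives changed the scaling, pseudocount, filter, probe set rule, variance model, replicate block and the arrays used.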

Additional observations from a re-analysis of the deposited data

How the results depend on the processing

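The 3 family medians stayed below 0 under every alternative run. Without centring, which lowers the median of all genes by 0.11, the medians were -0.25 (UTP), -0.23 (NOP) and -0.20 (RRP), and the sign turned for NOP14 (-0.019), NOP15 (-0.075), NOP4 (-0.068), RRP12 (-0.094), RRP45 (-0.033), UTP13 (-0.070), UTP21 (-0.082), UTP22 (-0.087) and UTP7 (-0.026). NOP1 was at 0.025 with quantile normalisation and 0.034 with cyclic loess, and RRP12 at -0.0024 without a filter. With the lowest 50% left out, 39 members remained. Without 1 array each, the medians ran from -0.15 to -0.059 (UTP), -0.22 to -0.061 (NOP) and -0.12 to -0.056 (RRP), and 0 to 1 members were called. All genes called numbered 2, against 11 without centring, 9 with quantile normalisation, 8 with cyclic loess, 7 with the lowest 50% left out, 9 with the mean of probe sets, 1 without an intensity trend and 1 to 21 without 1 array. Replicate numbers are not stated to pair cultures, and same-numbered arrays deviated with r = 0.04 across genes. With a replicate block 32 genes were called, 0 of them members, whose lowest adjusted p was 0.141. Causes were not tested, apart from fewer genes or arrays by construction.

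Without 1 array each, members that took either sign ranged as follows. UTP: UTP7 from -0.12 to 0.28, UTP11 from -0.15 to 0.092, UTP13 from -0.026 to 0.097, UTP20 from -0.24 to 0.72, UTP21 from -0.059 to 0.11 and UTP22 from -0.026 to 0.065. NOP: NOP1 from -0.028 to 0.021, NOP4 from -0.32 to 0.39, NOP12 from -0.63 to 0.034, NOP13 from -0.27 to 0.029, NOP14 from -0.28 to 0.46, NOP15 from -0.14 to 0.20, NOP16 from -0.31 to 0.13 and NOP58 from -0.20 to 0.056. RRP: RRP3 from -0.20 to 0.029, RRP12 from -0.11 to 0.13, RRP14 from -0.22 to 0.069, RRP15 from -0.0045 to 0.44, RRP17 from -0.091 to 0.48, RRP43 from -0.052 to 0.43, RRP45 from -0.17 to 0.32 and RRP46 from -0.64 to 0.037.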
